A study of Homo sapiens with 9 samples.

Results

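The genes described here carry out homologous recombination and the Fanconi anemia pathway of DNA repair, and they were followed in MDA-MB-231 cells treated with compounds that act on splicing. Of 35 genes listed by name, 34 were found by gene symbol among the 46846 features of the expression table. The remaining gene, RAD54B, appears only in a feature that it shares with FSBP and is kept out of every count. MDA-MB-231 is an established human triple-negative breast cancer line. Poly-A RNA was sequenced in 9 libraries: 3 of cells given DMSO, the solvent control, for 12 h, 3 of cells given indisulam at 3.3 µM for 12 h, and 3 of cells given pladienolide B at 10 nM for 6 h. No DMSO library was made at 6 h, so pladienolide B and the shorter time cannot be told apart in any comparison below. All groups are of the same line. Nothing in the labels says whether the 3 replicas of a group were separate cultures, and the spread that the p-values rest on may be technical.

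Homologous recombination repairs a broken chromosome by copying an intact sister strand. Nucleases first cut back the ends, BRCA1, PALB2 and BRCA2 then load the recombinase on the exposed strand with the help of its paralogs, and the joined molecules are finally dissolved or cut. The Fanconi anemia pathway deals with crosslinks between DNA strands: a ubiquitin ligase, the core complex, marks the FANCD2-FANCI clamp, and nucleases and recombination complete the repair. Inherited loss of either pathway predisposes to cancer, and loss of recombination in breast cancer cells sensitises them to PARP inhibitors and platinum. Indisulam is an aryl sulfonamide that brings the splicing factor RBM39 to a ubiquitin ligase for degradation, and pladienolide B binds the SF3B complex, which recognises the branch point of introns.

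The libraries held 59312100 to 83910831 reads, and 3 reads corresponded to a value of 2.48 to 3.87, far below the values of the members. Normalised totals lay between 60435009 and 63690595 in the DMSO and indisulam libraries and between 82366487 and 87510746 with pladienolide B. In DMSO, the mesenchymal markers VIM, CD44, AXL, CAV1 and FN1 had mean values between 48732 and 127792, and the hormone receptor genes ESR1 and PGR had means of 1.23 and 0.559. ERBB2 (5682) and EPCAM (973) were present although the list expected them low, and CDH1 was at 70.6. Of the leukocyte and endothelial markers, CD3E and CDH5 had means under the value of 3 reads in DMSO, and PTPRC, CD14 and PECAM1 had DMSO means of 9.76, 44.1 and 55.9. The values are read counts per gene feature that the authors normalised between libraries, so they do not show which spliced form the reads came from. In bulk samples, fewer cells of a kind and less RNA per cell cannot be told apart.

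With indisulam, 10 of the 34 genes fell, 2 rose and 22 did not pass the test (limma on log2 values, Benjamini-Hochberg adjusted p under 0.05 over all 16846 features tested). Of all features, 12.4% were called lower and 14.5% higher. The genes that fell were FANCL, MUS81, FANCI, FANCD2, RBBP8, FANCE, BRCA1, MRE11, FANCA and FANCG, and those that rose were FANCC and FANCB. The median log2 change was -0.11 over the members and 0.05 over all features. With pladienolide B, 22 members fell, 4 rose and 8 did not pass, beside 35.5% of all features called lower and 34.3% called higher. The median was -0.55 over the members and -0.01 over all features, and 12 members fell by a log2 change of 1 or more, as did 17.9% of all features. The indisulam and pladienolide B libraries were compared with the same DMSO libraries.

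In 21 members the 3 indisulam libraries did not overlap the 3 DMSO libraries (15 lay below and 6 above), beside 48.4% of all features. The pladienolide B libraries did not overlap DMSO in 27 members (21 below and 6 above), beside 71.8% of all features. BRCA1, FANCE, FANCL and MUS81 were lower under both drugs. Another 17 members were called lower with pladienolide B and not called with indisulam, and RAD50, EXO1 and RAD51B were called under neither. The fit takes the spread from all 3 groups: with only the DMSO and indisulam libraries, EXO1, RAD51D, RAD54L and FANCF joined FANCB and FANCC, giving 6 members higher, and the same 10 were lower. When every library was scaled to the same total, the median of all features with pladienolide B shifted by -0.47, 53.9% of features were called lower and 16.2% higher, and 28 members were called lower and 0 higher (0 at an unadjusted p under 0.05 in limma, against 5 higher with DESeq2 and 4 with edgeR under the authors' scaling).

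**Figure D1:**
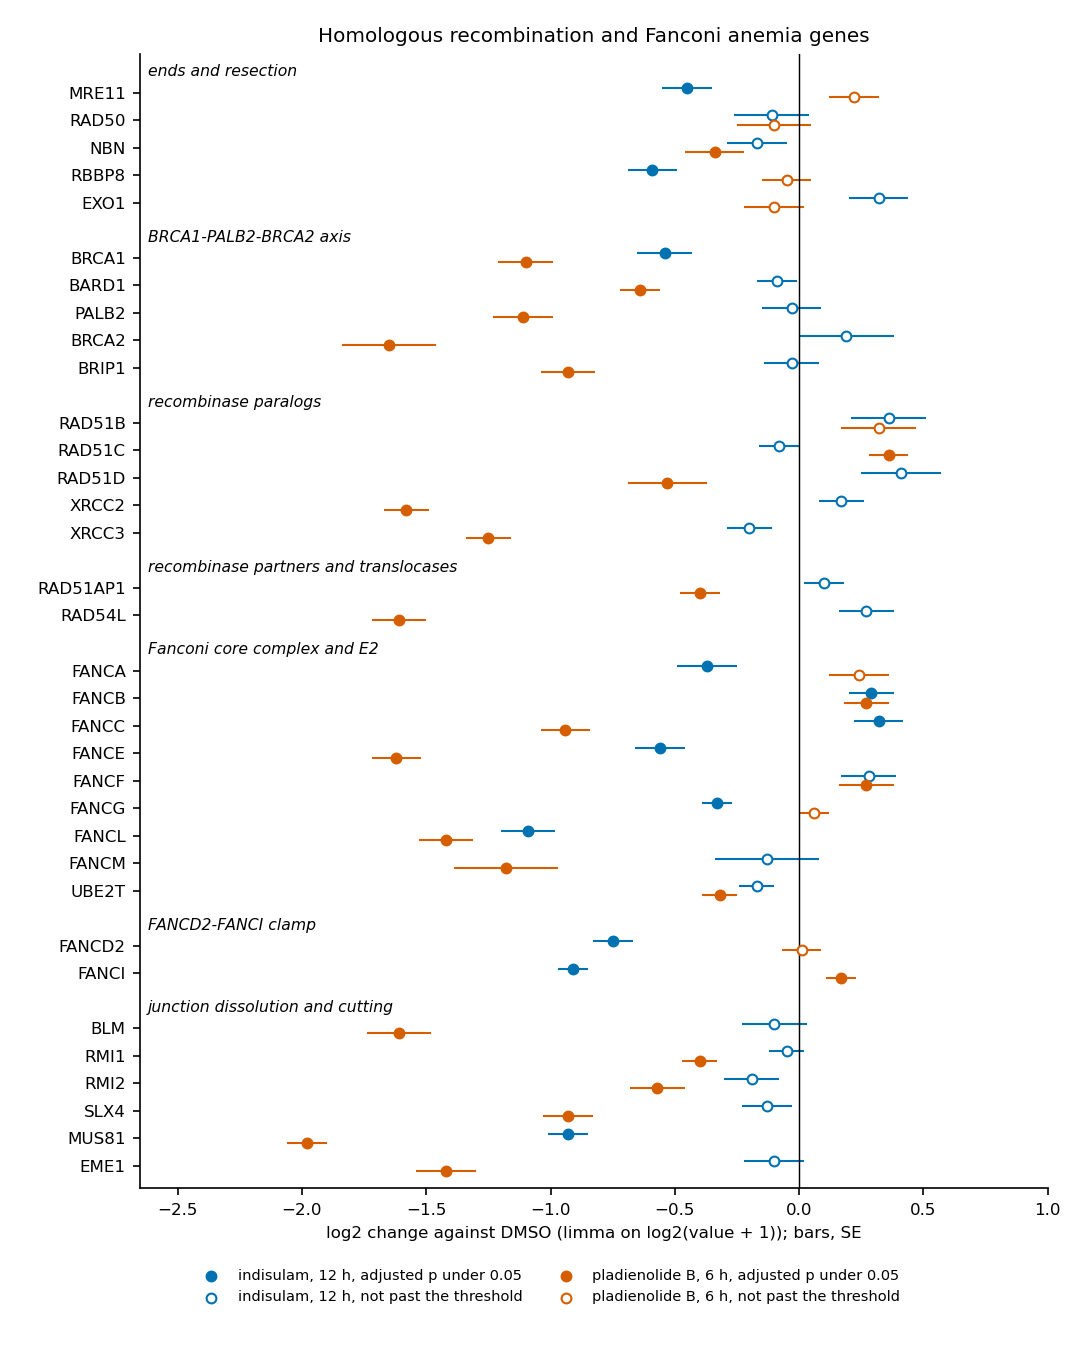
Log2 change against DMSO (horizontal axis) of the 34 genes, grouped by role, with indisulam (blue) and pladienolide B (orange). Points are limma estimates over 3 libraries a group with SE bars, filled where the adjusted p is under 0.05. MUS81 with pladienolide B, at -1.98, is farthest to the left.

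The promoters of the genes with the largest called changes under indisulam, FANCL and MUS81 among those that fell and FANCC and FANCB among those that rose, are shown so that their start regions can be set side by side. Each is the 250 bases before the RefSeq start (GRCh38.p14), read 5′ to 3′ on the gene's strand: chr2:58241326-58241575 (minus strand) for FANCL, chr11:65860183-65860432 (plus) for MUS81, chr9:95317710-95317959 (minus) for FANCC and chrX:14873070-14873319 (minus) for FANCB. Capitals mark letters of 4 motifs searched on both strands: the E2F motif (searched as TTGGCGC, in another form as TTCCCGC and in a further form as TTGGCGG), the CCAAT box, the cell cycle homology region or CHR (searched as TTTGAA, with TTCGAA as its other form), and the GC box with the letters GGGCGG.
FANCL: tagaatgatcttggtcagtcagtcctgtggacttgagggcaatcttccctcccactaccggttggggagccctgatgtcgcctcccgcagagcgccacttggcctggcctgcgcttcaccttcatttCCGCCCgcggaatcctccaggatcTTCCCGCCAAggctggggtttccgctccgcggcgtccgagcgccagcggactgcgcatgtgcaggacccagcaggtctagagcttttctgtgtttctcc
MUS81: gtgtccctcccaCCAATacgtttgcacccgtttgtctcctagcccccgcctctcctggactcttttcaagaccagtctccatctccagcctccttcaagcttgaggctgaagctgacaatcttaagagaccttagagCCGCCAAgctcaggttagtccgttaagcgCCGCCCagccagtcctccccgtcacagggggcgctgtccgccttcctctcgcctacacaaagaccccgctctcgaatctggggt
FANCC: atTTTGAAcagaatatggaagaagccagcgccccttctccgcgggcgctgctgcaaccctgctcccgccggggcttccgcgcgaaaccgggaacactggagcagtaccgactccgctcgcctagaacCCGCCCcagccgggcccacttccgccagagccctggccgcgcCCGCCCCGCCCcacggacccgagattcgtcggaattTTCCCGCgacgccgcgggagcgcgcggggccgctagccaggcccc
FANCB: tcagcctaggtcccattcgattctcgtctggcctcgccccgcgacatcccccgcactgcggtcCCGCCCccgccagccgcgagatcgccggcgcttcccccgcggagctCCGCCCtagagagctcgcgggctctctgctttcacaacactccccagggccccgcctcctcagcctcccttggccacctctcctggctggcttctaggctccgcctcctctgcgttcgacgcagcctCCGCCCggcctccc
The FANCL window holds 2 E2F matches that overlap each other, starting 99 and 96 bases before the start, and 1 GC box. The window of MUS81 holds 1 match each to CCAAT, E2F and the GC box. FANCC, which rose, also has an E2F match, 45 bases before the start, with a CHR match and 3 GC boxes, 2 of which overlap. The FANCB window holds 3 GC boxes and no match to the other motifs. Promoters were found for 31 of the 34 members. An E2F match stood in 10 of them (32.3%), in 10.3% of all 35116 promoters and in 14.7% of the 15655 promoters of features tested. CCAAT stood in 14 members (45.2%, against 32.5% of promoters of features tested), the GC box in 18 (58.1% against 62.2%) and CHR in 3 (9.68% against 10.4%). For each member the RefSeq start nearest to the start of its feature was taken, a choice not made for the promoters set beside them. The start taken for RAD51B, RAD51D and RAD50 lay 3762, 1662 and 637 bases from that of the feature. A match describes letters and not binding.

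Among the genes that recognise and cut back DNA ends, 2 of 5 fell with indisulam and 1 of 5 with pladienolide B, where equal library totals gave 4 lower, adding RAD50, RBBP8 and EXO1. Beside this and the counts of the role groups below, 12.4% of all features were lower and 14.5% higher with indisulam. With pladienolide B 35.5% of features were lower and 34.3% higher, or 53.9% and 16.2% with equal totals. The largest change was in RBBP8 (chr18:22933328-23026486), which encodes CtIP, the factor that starts resection. RBBP8 had 6390, 6120 and 7053 normalised reads in the DMSO libraries, 3986, 4564 and 4441 with indisulam, and 6597, 5314 and 7063 with pladienolide B. Every indisulam library lay below every DMSO library, whereas the pladienolide B libraries overlapped DMSO. Its log2 change was -0.59 ± 0.10 (SE; adjusted p = 0.000634) with indisulam and -0.05 ± 0.10 (adjusted p = 0.649) with pladienolide B, which equal totals made -0.52 (adjusted p = 0.000793). MRE11, the nuclease of the complex that senses breaks, fell from 806 ± 11.7 (SD, n = 3, as for every mean below) to 590.5 ± 29.04 with indisulam (log2 change -0.45, adjusted p = 0.00503) and had a mean of 942 ± 116 with pladienolide B (0.22, adjusted p = 0.0688). For that value DESeq2, the replicate block and the fit without pladienolide B replicate 2 called MRE11 higher, and equal totals gave -0.26 (adjusted p = 0.0509). The ATPase of that complex, RAD50, had means of 1880 ± 210, 1739 ± 66.2 and 1784 ± 457 in DMSO, indisulam and pladienolide B. Most of that last spread lay in replicate 2, at 1265 against 1964 and 2125. RAD50 lies inside a feature named for IL5 and SHROOM1, whose log2 change with pladienolide B was -1.11. The adaptor NBN had means of 4148 ± 359 in DMSO and 3679 ± 210 with indisulam and fell to 3306 ± 643 with pladienolide B (-0.34, adjusted p = 0.0176), a call that was lost without DMSO replicate 3 or pladienolide B replicate 2. EXO1, the exonuclease of long-range resection, had means of 3034 ± 243 in DMSO, 3804 ± 354 with indisulam (0.32, adjusted p = 0.0559) and 2854 ± 547 with pladienolide B. DESeq2 called EXO1 higher with indisulam.

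All 5 genes of the BRCA1-PALB2-BRCA2 axis fell with pladienolide B, and BRCA1 alone was called with indisulam. BRCA1 (chr17:43044295-43125451), which with BARD1 forms a ubiquitin ligase at breaks, had 736, 653 and 722 normalised reads in DMSO. With indisulam it had 453, 513 and 481, and with pladienolide B 306, 321 and 356. The 3 groups did not overlap, and DMSO was highest and pladienolide B lowest. The log2 change was -0.54 ± 0.11 (adjusted p = 0.00213) with indisulam and -1.10 ± 0.11 (adjusted p = 5.54e-07) with pladienolide B. BARD1 had means of 1181 ± 32.4 in DMSO and 1112 ± 41.8 with indisulam (adjusted p = 0.471), and fell to 757 ± 51.3 with pladienolide B (-0.64, adjusted p = 8.55e-06).

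PALB2 (chr16:23603154-23641310), the bridge between BRCA1 and BRCA2, had 1226, 1281 and 1415 in DMSO, 1186, 1238 and 1418 with indisulam, and 707, 516 and 600.0 with pladienolide B. The indisulam values overlapped those of DMSO (-0.03 ± 0.12, adjusted p = 0.873) and all pladienolide B values lay below (-1.11 ± 0.12, adjusted p = 1.14e-06). BRCA2 (chr13:32315479-32400268), which loads the recombinase, had 2426, 2531 and 3228 in DMSO and 3185, 2984 and 3074 with indisulam. With pladienolide B it had 967, 571 and 1159, 33.0% of the DMSO mean. Its 3 pladienolide B libraries spread more than those of any other member, with a coefficient of variation of 33.3%, yet all lay below DMSO (-1.65 ± 0.19, adjusted p = 3.6e-06). BRIP1, the helicase that binds BRCA1, had means of 2060 ± 87.2, 2011 ± 50.03 and 1092 ± 198 (pladienolide B, -0.93, adjusted p = 4.38e-06). For PALB2, BRCA2 and BRIP1 the pladienolide B replicate 2 library was the lowest of the 3, and without it the log2 change of BRCA2 was -1.35. BRCA1 has a partial pseudogene copy nearby, as FANCD2 has elsewhere, and how reads matching both were counted is not stated by the labels or the table.

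The 5 paralogs of the recombinase, which steady its filament, were split with pladienolide B, 3 lower and 1 higher. With indisulam none was called by edgeR or by limma over all 9 libraries without a replicate block (limma gave 2 of them an unadjusted p under 0.05). DESeq2 and limma on the DMSO and indisulam libraries alone called RAD51D higher. With the replicate block, limma called RAD51D and XRCC2 higher and XRCC3 lower. XRCC2 (chr7:152644776-152676165) had 4526, 4862 and 5244 in DMSO, 5039, 5561 and 5892 with indisulam, and 1500, 1584 and 1820 with pladienolide B. The pladienolide B libraries of XRCC2 stood apart from the rest at 33.5% of the DMSO mean (-1.58 ± 0.09, adjusted p = 2.28e-09), and indisulam overlapped DMSO (0.17 ± 0.09, adjusted p = 0.161). XRCC3 (chr14:103697609-103715459) had 1304, 1327 and 1491 in DMSO, 1187, 1120 and 1280 with indisulam, and 525, 584 and 622 with pladienolide B. Its indisulam values lay just below DMSO without passing the test (-0.20 ± 0.09, adjusted p = 0.137), and its pladienolide B values were lowest (-1.25 ± 0.09, adjusted p = 4.63e-08). KLC1, on the other strand, overlaps XRCC3 over 15204 bases and had a log2 change of -0.76 with pladienolide B.

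RAD51D, the partner of XRCC2, had means of 393 ± 65.1 in DMSO and 518 ± 44.1 with indisulam (0.41, adjusted p = 0.0706), and fell to 273 ± 50.4 with pladienolide B (-0.53, adjusted p = 0.00813). RAD51C, which belongs to both paralog complexes, had 881 ± 61.6 in DMSO and 832 ± 27.7 with indisulam (-0.08, adjusted p = 0.511), and rose to 1133 ± 24.7 with pladienolide B (0.36, adjusted p = 0.00139), though with equal library totals the value turned to -0.11 (adjusted p = 0.275). RAD51B, the remaining paralog, had a DMSO mean of 205 ± 35.2 and means of 262 ± 23.8 and 254 ± 10.7 with the drugs. Its changes of 0.36 (indisulam, adjusted p = 0.0913) and 0.32 (pladienolide B, adjusted p = 0.0714) did not pass the test, but they did without DMSO replicate 1, and equal totals turned the latter to -0.15 (adjusted p = 0.389).

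Both partners of the recombinase that could be measured fell with pladienolide B. RAD54L (chr1:46247688-46278476), a motor protein that opens duplex DNA for strand invasion, had 1336, 1548 and 1540 in DMSO, 1713, 1797 and 1816 with indisulam, and 403, 529 and 528 with pladienolide B. The indisulam libraries were all above DMSO without passing the test (0.27 ± 0.11, adjusted p = 0.0819; DESeq2 called it higher), and the pladienolide B libraries were all below (-1.61 ± 0.11, adjusted p = 1.63e-08). LRRC41 overlaps RAD54L over 7753 bases on the other strand and had a log2 change of -0.53 with pladienolide B. RAD51AP1, which helps the invading strand to pair, had means of 2158 ± 37.8 and 2323 ± 146 in DMSO and indisulam and fell to 1644 ± 162 with pladienolide B (-0.40, adjusted p = 0.000602). The joint feature of RAD54B and FSBP had means of 1569 ± 37.6, 1690 ± 52.8 and 713 ± 76.9, with log2 changes of 0.11 (adjusted p = 0.401) and -1.14 (adjusted p = 5.22e-08).

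Of the 9 genes of the core complex and its E2 enzyme, 4 fell and 2 rose with indisulam, and 5 fell and 2 rose with pladienolide B, where equal totals gave 6 lower and 0 higher (0 at an unadjusted p under 0.05 in limma). FANCL (chr2:58159243-58241380), the ubiquitin ligase subunit, had 697, 635 and 698 in DMSO, 304, 345 and 306 with indisulam, and 249, 261 and 247 with pladienolide B. Both drug groups lay wholly below DMSO, at 47.0% and 37.3% of its mean. The change of FANCL with indisulam, -1.09 ± 0.11 (adjusted p = 1.63e-05), was the only one of the 34 to pass 1 on the log2 scale in that comparison, and with pladienolide B it was -1.42 ± 0.11 (adjusted p = 5.16e-08). VRK2, whose end overlaps that of FANCL by 678 bases, had log2 changes of -0.36 and -0.33. FANCB, the subunit that pairs with FANCL, moved the other way, from 639.7 ± 39.8 to 783 ± 50.7 with indisulam (0.29, adjusted p = 0.0304) and 772 ± 20.8 with pladienolide B (0.27, adjusted p = 0.0161; -0.20 with equal library totals, adjusted p = 0.0641). The indisulam call of FANCB was lost under 2 other scalings and without DMSO replicates 2 or 3 or indisulam replicates 1 or 3, and the pladienolide B call with TMM scaling and without DMSO replicates 2 or 3. UBE2T, the E2 enzyme, had means of 3915 ± 178 and 3481 ± 280 in DMSO and indisulam (-0.17, adjusted p = 0.0889) and fell to 3139 ± 89.2 with pladienolide B (-0.32, adjusted p = 0.00112). TMM scaling, equal library totals and the replicate block each called UBE2T lower with indisulam.

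FANCC, FANCE and FANCF form a module of the core complex that docks the FANCD2-FANCI substrate. FANCE (chr6:35452338-35467104) had 2023, 2205 and 2307 in DMSO, 1359, 1483 and 1583 with indisulam, and 701, 632 and 795 with pladienolide B. The 3 groups were fully separated (-0.56 ± 0.10, adjusted p = 0.000929, and -1.62 ± 0.10, adjusted p = 5.39e-09). FANCC rose from 1022 ± 64.4 to 1276 ± 47.2 with indisulam (0.32, adjusted p = 0.0235), a call lost without DMSO replicates 1 or 3 or indisulam replicates 2 or 3, and fell to 534.5 ± 55.7 with pladienolide B (-0.94, adjusted p = 9.08e-07). FANCF (chr11:22622533-22625841), whose gene has 1 exon and no intron, had 391, 356 and 387 in DMSO, 457, 440.0 and 479 with indisulam, and 416, 491 and 458 with pladienolide B. All 6 treated libraries of FANCF lay above the 3 of DMSO. Its change was 0.28 ± 0.11 with indisulam (adjusted p = 0.0709) and 0.27 ± 0.11 with pladienolide B (adjusted p = 0.0398), the latter a call that 11 of the 19 alternative settings lost and that equal library totals turned to -0.21 (adjusted p = 0.0969). For comparison, the 269 protein-coding features with 1 exon had a median log2 change of 0.22 with indisulam and 0.69 with pladienolide B. The 12010 with several exons had medians of 0.03 and -0.10. With pladienolide B, 64.3% of those with 1 exon and 33% of those with several were called higher. These values are under the authors' scaling and were not recomputed with equal library totals. Equal totals shift the changes of pladienolide B against DMSO by -0.47.

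Of the other core genes, FANCA fell with indisulam from 903 ± 150 to 690.5 ± 42.8 (-0.37, adjusted p = 0.0286) and had a mean of 1057 ± 41.6 with pladienolide B (0.24, adjusted p = 0.0779; -0.23 with equal library totals, adjusted p = 0.0898). The indisulam call of FANCA was lost without DMSO replicates 2 or 3 or indisulam replicates 1 or 3. With pladienolide B, FANCA was called higher with the replicate block and without DMSO replicate 2. FANCG, its binding partner, fell from 3253 ± 132 to 2584 ± 124 (-0.33, adjusted p = 0.00182) and was at 3391 ± 81.2 with pladienolide B (0.06, adjusted p = 0.411; -0.41 with equal library totals, adjusted p = 8.45e-05). FANCM (chr14:45135930-45200890), the DNA translocase that anchors the complex, had 306, 291 and 407 in DMSO, 302, 281 and 325 with indisulam, and 170, 98.0 and 185 with pladienolide B. The pladienolide B values of FANCM were all below DMSO (-1.18 ± 0.21, adjusted p = 0.000224), replicate 2 again the lowest, on 76 reads, and the indisulam values overlapped (-0.13 ± 0.21, adjusted p = 0.7).

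FANCD2 and FANCI, which clamp DNA together once ubiquitinated, both fell with indisulam and not with pladienolide B under the authors' scaling. FANCD2 (chr3:10026414-10101932) had 1175, 1177 and 1123 in DMSO, 629, 704 and 728 with indisulam, and 1187, 1148 and 1173 with pladienolide B. The indisulam libraries stood alone at 59.3% of the DMSO mean (-0.75 ± 0.08, adjusted p = 3.17e-05), while those of pladienolide B overlapped DMSO (0.01 ± 0.08, adjusted p = 0.887). FANCI (chr15:89243967-89317259) had 6306, 6603 and 6857 in DMSO, 3354, 3629 and 3566 with indisulam, and 7940, 7150 and 7174 with pladienolide B. For FANCI, indisulam lay wholly below DMSO (-0.91 ± 0.06, adjusted p = 1.72e-06) and pladienolide B wholly above (0.17 ± 0.06, adjusted p = 0.0271), a rise lost with TMM scaling and without DMSO replicate 1, DMSO replicate 2 or pladienolide B replicate 1. With equal library totals the pladienolide B changes turned to -0.46 (adjusted p = 0.000253) for FANCD2 and -0.30 (adjusted p = 0.000968) for FANCI. POLG, which overlaps the end of FANCI by 957 bases, had log2 changes of 0.12 and -0.18.

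**Figure D2:**
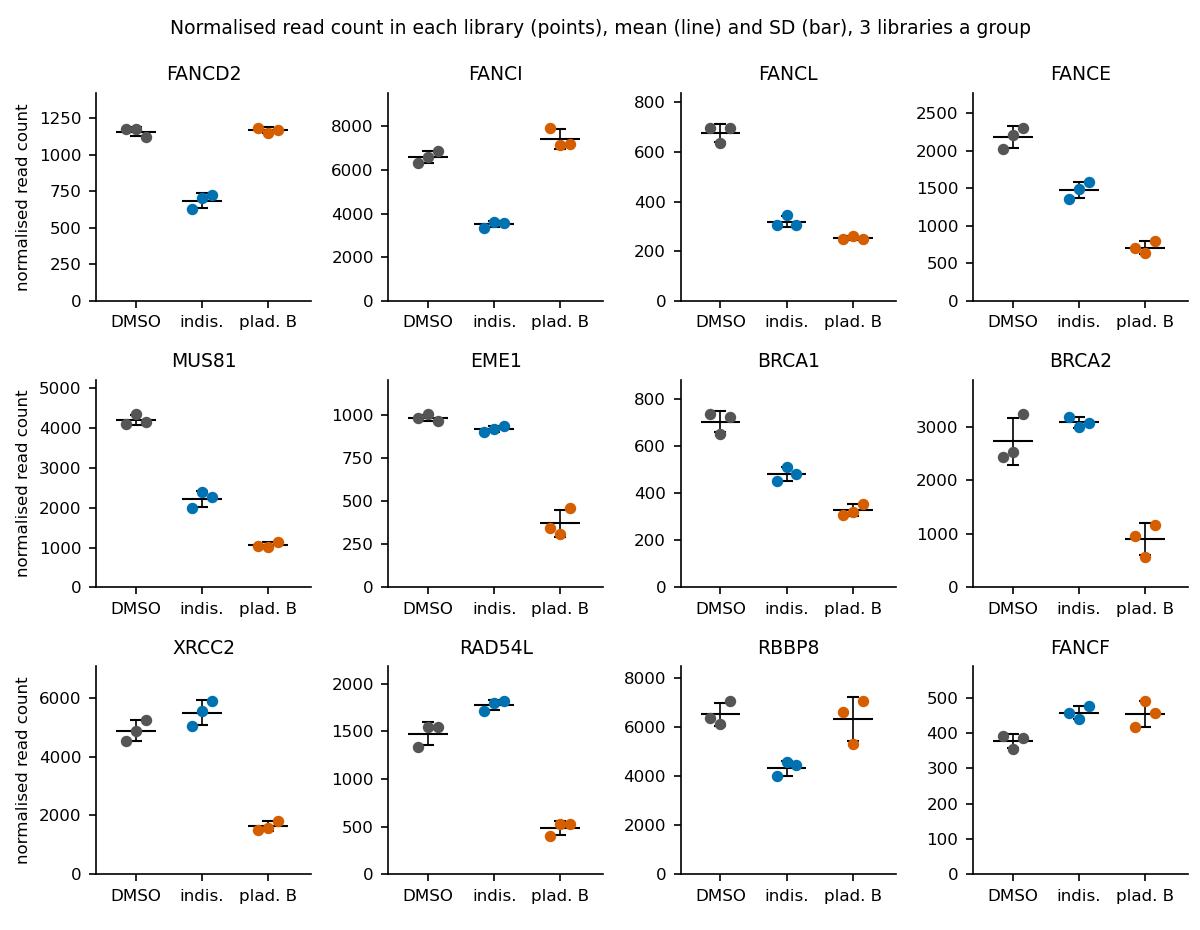
Normalised read count (vertical axes, from 0) of 12 genes in each of the 9 libraries, with the mean (line) and SD (bar) of 3 libraries a group. FANCD2, FANCI and RBBP8 are low in the indisulam libraries, EME1, BRCA2, XRCC2 and RAD54L in those of pladienolide B, and FANCL, FANCE, MUS81 and BRCA1 in both.

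All 6 genes that dissolve or cut joined DNA molecules fell with pladienolide B, and MUS81 was the one called with indisulam. MUS81 (chr11:65860405-65867653), the catalytic subunit of a structure-specific nuclease, had 4105, 4339 and 4157 in DMSO, 1984, 2390 and 2270 with indisulam, and 1040, 1009 and 1152 with pladienolide B. The groups of MUS81 were fully separated, at 52.7% and 25.4% of the DMSO mean. Its changes were -0.93 ± 0.08 (adjusted p = 6.77e-06) and -1.98 ± 0.08 (adjusted p = 1.88e-10), the latter the largest fall among the 34. EFEMP2, with a log2 change of 0.62 with pladienolide B, overlaps the end of MUS81 by 1213 bases on the other strand. EME1 (chr17:50373229-50381483), its partner subunit, had 981, 1004 and 967 in DMSO, 901, 918 and 935 with indisulam, and 346, 312 and 460 with pladienolide B. Indisulam lay slightly below DMSO without passing the test (-0.10 ± 0.12, adjusted p = 0.592) and pladienolide B far below (-1.42 ± 0.12, adjusted p = 1.89e-07). LRRC59, with a mean of 42910 over the libraries, overlaps the end of EME1 by 247 bases and had a log2 change of 0.56 with pladienolide B.

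BLM (chr15:90717346-90816166), the helicase mutated in Bloom syndrome, had 1948, 2028 and 2166 in DMSO, 1835, 1835 and 2047 with indisulam, and 622, 561 and 861 with pladienolide B. The first 2 groups overlapped (-0.10 ± 0.13, adjusted p = 0.591), and pladienolide B was at 33.3% of the DMSO mean (-1.61 ± 0.13, adjusted p = 7.66e-08). RMI1 and RMI2, which hold BLM in the dissolvasome, changed less: RMI1 had means of 2890 ± 105 and 2789 ± 146 and fell to 2190 ± 183 (-0.40, adjusted p = 0.000263). RMI2 had means of 917 ± 55.9 and 802 ± 53.1 and fell to 622 ± 87.4 (-0.57, adjusted p = 0.000401). SOCS1, whose log2 change with pladienolide B was -2.01, lies within the RMI2 feature on the other strand, and HNRNPK, at 0.46, overlaps the start of RMI1 by 257 bases. The library type in the labels keeps strand, but whether the counting used it is not stated in the labels or the table, so the part of such neighbours in these values was not tested. SLX4, the scaffold for the nucleases, had means of 2159 ± 95.9 and 1972 ± 65.0 and fell to 1144 ± 174 (-0.93, adjusted p = 1.61e-06).

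The pladienolide B and indisulam libraries were also compared with each other, although drug, dose and time all differ between them. Pladienolide B was lower in 21 members and higher in 7, beside 35.6% of all features lower and 34.7% higher, and the groups did not overlap in 28 members, beside 71.8% of features. The 7 were FANCI (1.08 ± 0.06, adjusted p = 4.72e-09), FANCD2 (0.77 ± 0.08, adjusted p = 1.54e-06), MRE11, FANCA, RBBP8, RAD51C and FANCG. With equal library totals FANCI and FANCD2 were still called higher, MRE11, FANCA, RBBP8 and RAD51C were no longer called, and FANCG turned to -0.03 (adjusted p = 0.742). The largest differences the other way were in RAD54L (-1.88 ± 0.11, adjusted p = 4.08e-09), BRCA2 (-1.84 ± 0.19, adjusted p = 1.26e-06) and XRCC2 (-1.75 ± 0.09, adjusted p = 9.19e-10). BRCA1, FANCE and MUS81, lower than DMSO in both, were lower still with pladienolide B, by log2 differences of -0.56, -1.06 and -1.05. FANCL also was (-0.33 ± 0.11, adjusted p = 0.0139), except without indisulam replicate 2, when the call was lost. RAD50, at a difference of 0.00 (adjusted p = 0.988), NBN, RAD51B, FANCB, FANCF and UBE2T did not pass the test. With equal library totals all of these were called lower, giving 27 members lower and 2 higher. Of the 16846 features, 8497 were then lower and 3014 higher. UBE2T was also called lower with TMM scaling, with the replicate block and without indisulam replicate 1. NBN was called lower with the replicate block and without pladienolide B replicate 3, and RAD50 higher without pladienolide B replicate 2.

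Ratios between the transcripts of proteins that work as partners do not depend on how libraries are scaled, and 14 such pairs, chosen with their values known, were followed library by library. They are ratios of normalised counts, not corrected for transcript length, so the change between groups is what they show. In 9 pairs the indisulam libraries did not overlap DMSO, and in 11 the pladienolide B libraries did not. FANCE, FANCL and MRE11 recur among the pairs, which are therefore not independent. Every pair that holds them lay below DMSO with indisulam. The share among other pairs of genes was not computed, and single features did not overlap in 48.4% and 71.8% of cases, so the counts are a description of these pairs. An exact two-sided permutation test over 3 against 3 libraries cannot go below p = 0.1, the value that each ratio whose groups did not overlap gave. MUS81 to EME1 stood at 4.18, 4.32 and 4.30 in DMSO, 2.20, 2.60 and 2.43 with indisulam, and 3.01, 3.23 and 2.50 with pladienolide B, lower in every treated library. FANCD2 to FANCI, which both fell with indisulam, had a ratio of 0.176 ± 0.011 in DMSO, which was 0.195 ± 0.0084 under indisulam and 0.158 ± 0.0074 under pladienolide B. BRCA1 to BARD1 went from 0.596 ± 0.025 to 0.434 ± 0.021 and 0.433 ± 0.025.

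FANCL to FANCB had the largest change under indisulam, from 1.06 ± 0.069 to 0.409 ± 0.058, and was 0.327 ± 0.0041 with pladienolide B. FANCE to FANCF changed most among the falls with pladienolide B, from 5.78 ± 0.54 to 1.57 ± 0.25, and was 3.22 ± 0.21 with indisulam. RAD51C to XRCC3 rose with pladienolide B in every library, from 0.643 ± 0.054 to 1.97 ± 0.13, and its indisulam libraries (0.697 ± 0.031) overlapped DMSO. FANCA to FANCG and RMI1 to RMI2 overlapped DMSO under both drugs.

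**Figure D3:**
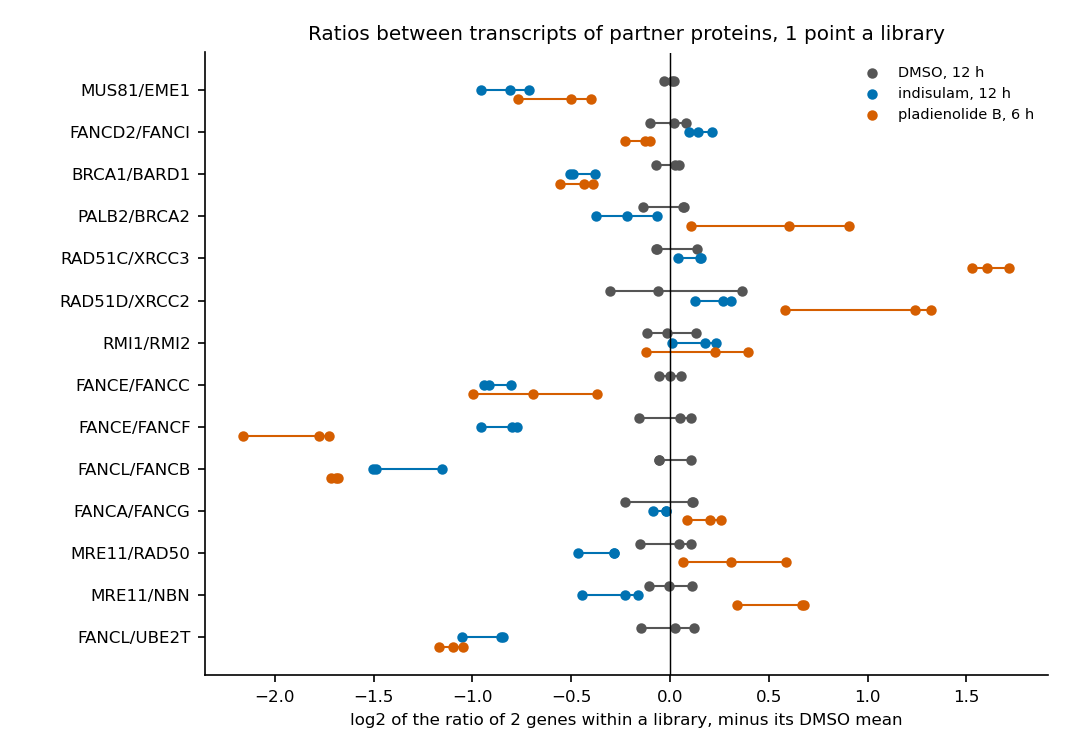
Log2 of the within-library ratio of 14 gene pairs (rows), less its mean over the DMSO libraries (horizontal axis). Each point is a library, 3 a group, joined by a line over the range. FANCL/FANCB is shifted to the left under both drugs and RAD51C/XRCC3 to the right with pladienolide B.

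Other genes of the same pathways changed in both directions. Of 51 tested, 9 were lower and 7 higher with indisulam, and 27 lower and 19 higher with pladienolide B, with medians of -0.02 and -0.32. The indisulam shares were 17.6% lower and 13.7% higher, beside 12.4% and 14.5% of all features. With pladienolide B the shares were 52.9% lower and 37.3% higher, beside 35.5% and 34.3% of all features. With equal library totals, 33 were lower and 8 higher with pladienolide B, beside 53.9% and 16.2% of all features. ABRAXAS1 (-0.99 ± 0.14, adjusted p = 0.000201), the scaffold of a BRCA1 complex, and RECQL5 (-0.46, adjusted p = 0.00883), a helicase that disrupts the recombinase filament, fell most with indisulam. GEN1, a nuclease that cuts joined molecules, rose with indisulam from 598 ± 5.30 to 1025 ± 39.9 (0.78 ± 0.23, adjusted p = 0.0223) without overlap, but the call was lost when any DMSO or indisulam library was left out. BABAM2 rose by 0.31 (adjusted p = 0.0106; lost without DMSO replicate 3). With pladienolide B, RNF168 (1.55 ± 0.05, adjusted p = 4.81e-11), a ubiquitin ligase of chromatin near breaks, and H2AX (1.52 ± 0.07, adjusted p = 4.71e-10), the histone variant phosphorylated there, rose most. SFR1 (-2.15 ± 0.16, adjusted p = 4.28e-08), a cofactor of the recombinase, and ERCC4 (-1.97 ± 0.24, adjusted p = 5.44e-06), the nuclease that unhooks crosslinks, fell most.

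Lists of other genes used in S phase and mitosis were set beside the members. Of all features, 12.4% were lower and 14.5% higher with indisulam. With pladienolide B 35.5% of features were lower and 34.3% higher, or 53.9% and 16.2% with equal totals. Of 42 replication genes, 17 were lower and 3 higher with indisulam, with POLE2 (-1.17, adjusted p = 4.48e-06) and CDC45 (-0.99, adjusted p = 1.58e-05) lowest and ORC6 (0.67, adjusted p = 0.000257) and RFC1 (0.46, adjusted p = 0.00214) highest. With pladienolide B, 18 were lower and 18 higher, from ORC6 (-1.86) and CCNE2 (-1.84) to POLA1 (0.69) and POLD2 (0.72), and equal totals made this 27 lower and 4 higher. Of 30 mitotic genes, 10 were lower and 4 higher with indisulam, among them NCAPG (-1.15), TOP2A (-1.14), KIF23 (0.37) and CCNB2 (0.27). With pladienolide B 24 were lower, led by CDCA8 (-2.22) and NDC80 (-1.99), and 3 were higher, with CDK1 at 0.43 and PTTG1 at 0.36, values that equal library totals turned to -0.04 and -0.12, with 27 of the list lower and 0 higher (0 at an unadjusted p under 0.05 in limma).

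Of 33 genes of excision and mismatch repair, 8 were lower and 3 higher with indisulam, and 16 lower and 10 higher with pladienolide B, or 27 and 1 with equal library totals. Those shares were 24.2% and 9.09% with indisulam and 48.5% and 30.3% with pladienolide B, to be read beside the shares of all features given above. LIG3 (-1.05) fell most with indisulam, and MLH3 (1.06, adjusted p = 0.00085) and PARP2 (0.23, adjusted p = 0.0227, lost in 7 alternative settings) rose. With pladienolide B NEIL3 (-3.50) and XPC (-2.11) fell most and PARP1 (0.62) and APEX1 (0.57, no longer called with equal library totals) rose most. Of 15 genes of end joining, the repair route that needs no template, limma, edgeR and DESeq2 each called 2 lower and 0 higher with indisulam (2 higher at an unadjusted p under 0.05). The 2 lower genes were TDP1 (-0.73) and PRKDC (-0.22, lost in 5 settings), 13.3% of the list beside 12.4% of all features. With pladienolide B 6 were higher, with XRCC6 (0.84) and XRCC5 (0.62) on top, and 4 lower, with POLL (-1.41) and TDP2 (-1.15) lowest, where equal totals gave 2 higher and 10 lower. The lists were chosen with earlier results of these data known, and their differences from the members were not tested.

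**Figure D4:**
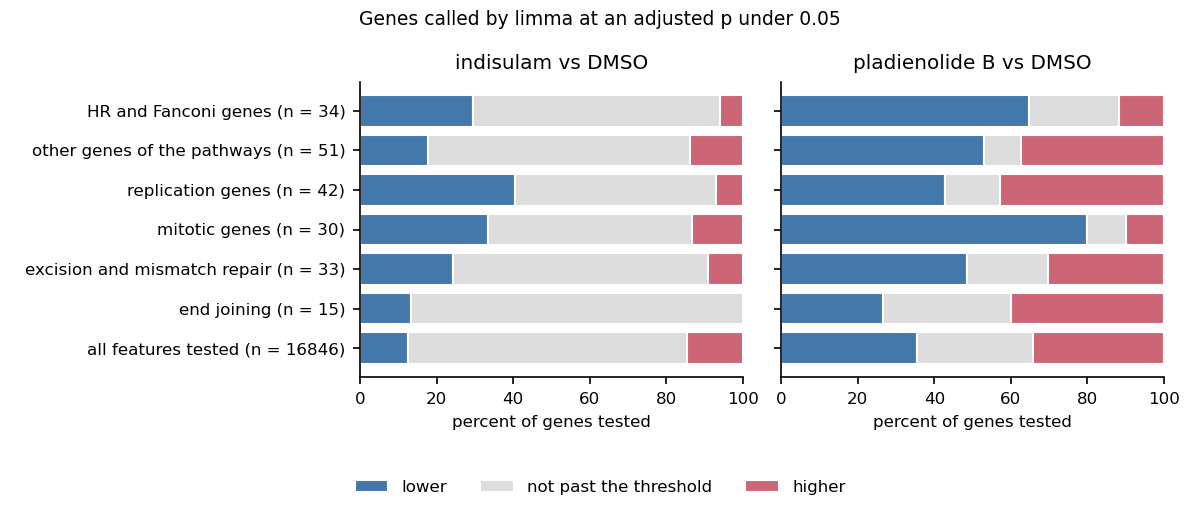
Percent of genes tested (horizontal axes) that limma called lower (blue), higher (red) or neither (grey) at an adjusted p under 0.05, for the 34 homologous recombination and Fanconi anemia genes, 5 other lists and all 16846 features. With indisulam 10 of the 34 are lower, and with pladienolide B 22.

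Summed over the 34 genes, the normalised reads came to 67776, 69134 and 73025 in DMSO, 57962, 61138 and 62959 with indisulam, and 51117, 46202 and 52757 with pladienolide B. The indisulam mean was 0.867 and the pladienolide B mean 0.715 of that of DMSO, without overlap (exact two-sided permutation test p = 0.1 for each, the smallest the design allows). As a share of each library's signal, which does not depend on scaling between libraries, they took 0.115% ± 0.00529 of the DMSO libraries, 0.0958% ± 0.00353 of the indisulam libraries and 0.0592% ± 0.00578 of those of pladienolide B. Within groups the libraries were not alike: indisulam replicate 1 was the lowest of its group in 22 of the 34 genes, against 37.5% of all features, and pladienolide B replicate 2 in 18, against 31.7%. Without indisulam replicate 1, 9 members were lower and 1 higher with indisulam, and without pladienolide B replicate 2, 21 were lower and 4 higher with that drug. Per kilobase of the transcript taken, DMSO levels ran from 39.4 (RAD51D, 9988 exonic bases) to 4312 (UBE2T, 908 bases). Without division by length, the lowest DMSO mean was that of RAD51B (205), and RAD51D had 393. Across the 34 genes the number of exons had a Spearman correlation of -0.33 with the indisulam change and -0.02 with that of pladienolide B, given as a description over genes that share libraries; over 12279 protein-coding features the values were -0.24 and -0.22.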

How the data were processed

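Poly-A RNA-seq of 9 MDA-MB-231 libraries was used, 3 a group. The deposited table holds, per the file headers, DESeq2-normalised counts for 46846 features, a signal in units of normalised reads that the authors made by dividing each library by a size factor. Per the submitters' processing notes, FastQC, Picard, SAMtools, STAR 2.7.5a, DESeq2 and hg38 were used. Which tool counted the reads, on which annotation and with which strand setting, is not given in the sources used here. In every library 100% of values were whole multiples (tolerance 0.01) of what 1 read is worth, so reads were recovered, 59312100 to 83910831 a library. No replicate pair agreed within sampling noise (chi-square per feature 9.26 to 31.3). The members had 76 to 8001 reads a library.

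Features with a mean of at least 10 (16846) were tested as log2(value + 1) with limma 3.58.1 (R 4.3.3, moderated variances with a mean trend, all libraries in 1 fit) and adjusted by Benjamini-Hochberg over all of them at 0.05. A fold change on this scale understates the change of low genes. The fit was run on counts simulated from the DMSO means with a small set of features changed. That setting differs from pladienolide B, where 35.5% of features were called lower and 34.3% higher, and did not test the scaling between libraries. Single values were compared by exact permutation over libraries. Alternatives were pseudocounts of 0.5 and 5, no filter, a minimum mean of 50, TMM scaling, equal library totals, edgeR 4.0.16 and DESeq2 1.42.0 on recovered reads, only the groups compared, a replicate block, and each library left out. edgeR on recovered reads called 2 members higher and 10 lower with indisulam and 4 and 22 with pladienolide B. Exons, transcript lengths and strands come from GENCODE 29 principal transcripts (34 of 34 members), and promoters from RefSeq. The replicate numbers were not taken as pairs (see the closing section).

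The members and lists were chosen with earlier results of these data known. Every member is named. Values per library are given for members called with a log2 change of at least 0.5 with indisulam or 1 with pladienolide B, and for BRCA1, BRCA2, PALB2, FANCD2 and FANCF. From each list, up to 2 called genes a direction and drug with the largest change and a mean of at least 100 are named, except that 1 of them and 1 marker gene are not reported here.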

Additional observations from a re-analysis of the deposited data

Results flagged for a closer look

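FANCC and FANCI were picked by a rule: opposite calls against DMSO under the 2 drugs and a call in the direct comparison of the drugs. The call between the drugs was thus part of the choice and adds no support. FANCC was higher with indisulam and lower with pladienolide B, a log2 difference of pladienolide B minus indisulam of -1.26 (adjusted p = 5.11e-08). FANCI was lower with indisulam and higher with pladienolide B, a difference of 1.08 (adjusted p = 4.72e-09). Both differences kept their direction and their call in all 19 alternative settings, between -1.68 and -1.19 for FANCC and between 0.66 and 1.10 for FANCI. The rises against DMSO were less steady. That of FANCC with indisulam was lost in 4 settings, and that of FANCI with pladienolide B was lost in 4 and reversed in 1. With equal library totals FANCI was below DMSO under both drugs, at -0.30 with pladienolide B. The drugs were given for 12 h and 6 h, so drug and time cannot be told apart.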

How the results depend on the processing

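The calls over all features and those of the members were recomputed under 19 alternatives. Counts of the other lists were recomputed under TMM scaling, equal totals, edgeR and DESeq2, and those of the role groups under the last 3. Pair ratios, summed reads, motif shares, correlations and the values of features with 1 or several exons have no alternative. Of the 12 members called with indisulam, 9 kept their call in all of them, as did 21 of 26 with pladienolide B and 22 of 28 between the drugs. Among members not called, 8 of 22 with indisulam gained a call in at least 1 alternative. So did 8 of 8 with pladienolide B and 6 of 6 between the drugs. With indisulam, the number of members called higher was 1 with TMM scaling, 1 with equal library totals, 5 with DESeq2, 6 with only the 2 groups compared, and 0 to 4 when a library was left out, 0 in limma without DMSO replicate 3 or without indisulam replicate 3 (6 and 2 at an unadjusted p under 0.05). Members called lower with indisulam numbered 11 with TMM scaling and 11 with equal totals, where UBE2T joined, beside 2441 and 2544 features. Features called higher with indisulam ranged from 1563 (without indisulam replicate 3) to 2981 when a library was left out. With pladienolide B, members called higher numbered 1 with TMM scaling, 0 with equal totals (0 unadjusted), and 2 to 4 when a library was left out. Equal totals gave 2733 features higher and 9086 lower with pladienolide B than in DMSO, and 3014 features and 2 members higher than with indisulam. Among values called on either side, they turned RAD51C to -0.11, FANCB to -0.20, FANCF to -0.21, FANCG to -0.41, FANCD2 to -0.46 and FANCI to -0.30 against DMSO, and RAD50 to -0.42 and FANCG to -0.03 against indisulam. MRE11 (-0.26), RAD51B (-0.15) and FANCA (-0.23) against DMSO also changed sign, called in neither. That scaling shifts every gene by the same amount, because the pladienolide B libraries have larger normalised totals. Libraries with the same replicate number correlated by 0.00 to 0.13 in their deviations, and those with different numbers by -0.12 to 0.04. Not every library correlated best with its own number, and the labels name no shared batch, so they were not taken as pairs. Whether libraries of 1 number share a batch was not tested. With the replicate block, 7 members were higher and 12 lower with indisulam (2 and 10 without it), 6 and 22 with pladienolide B, and 7 and 23 between the drugs. Depth limits FANCM most, with 76 reads in its lowest library.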
